A study of Mus musculus with 8 samples.

Results

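The immediate early genes *Fos*, *Fosb*, *Jun*, *Junb*, *Jund*, *Egr1*, *Egr2*, *Ier2*, *Atf3* and *Dusp1* were followed across the 8 mice of a study of CSF1 overexpression in brain. These 10 genes were taken by name from the 20308 genes in the count files, and 10 of 10 passed the filter on low counts that kept 13407 genes. RNA was measured in cells pulled down with beads against CD11b, a surface protein of microglia and other myeloid cells, from the right brain hemisphere. The 4 CSF1 OE mice overexpress the secreted form of CSF1, the growth factor that binds the microglial receptor CSF1R, from a TRE/tTA transgene pair in a subset of GFAP-positive cells, and the 4 control mice are labelled as the controls for that overexpression. Both genotypes were C57Bl/6 X CD1 F1 mice aged 14 or 15 days after birth, with 1 library per mouse, and the labels do not say which alleles the control mice carried. The transgene is driven in GFAP-positive cells and not in the cells that were isolated, so its level in these libraries does not check the labels. *Csf1* itself lay between 139 and 364 CPM in control and between 167 and 400 CPM in CSF1 OE mice, where CPM is the count scaled to a TMM-normalized library of 1000000. Libraries held 12053259 to 15475465 counts.

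Immediate early genes are switched on within minutes of a stimulus, from factors already present in the cell and without new protein synthesis. Many of them encode transcription factors. Proteins of the Fos and Jun families pair to form AP-1, Egr proteins are zinc finger factors, and *Dusp1* encodes a phosphatase that switches off the MAP kinases which induce these genes. In microglia and other brain cells their RNA can also rise while tissue is dissociated and sorted, so a level in isolated cells need not be the level in the animal.

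The cells carried the markers of their label. The 10 microglia markers summed to between 22200 and 38600 CPM in control and between 28600 and 39800 CPM in CSF1 OE mice. *Csf1r* was the most abundant of them, at 6560 to 12100 CPM. Other cell types were present as well, with oligodendrocyte markers at 2950 to 6160 CPM in control and 1610 to 5010 CPM in CSF1 OE mice, and endothelial markers at 727 to 1230 against 348 to 851 CPM. Of other myeloid cells, border macrophage markers summed to 2940 to 4010 CPM in control and 2080 to 3190 CPM in CSF1 OE mice. All 8 of these were lower in CSF1 OE mice and 0 were called. Monocyte markers ran from 525 to 1390 against 620 to 755 CPM, and neutrophil markers from 39.8 to 93.6 against 13.2 to 199 CPM. The markers of T and NK cells and of B cells summed to 19.8 CPM at most. In such bulk samples fewer cells of a type and less RNA per cell cannot be told apart.

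The stretch of DNA before the start site of an immediate early gene carries the short motifs through which signalling acts on it. RefSeq windows of 250 bases before the start (GRCm38.p6) were at hand for 8 of the 10 genes, all but *Egr1* and *Ier2*. The *Jund* window lay 1210 bases away from the start of that gene in GENCODE M21, so its lack of a motif says nothing of the DNA before that start. *Egr2* had 5 windows, of which the one at the start of 1 annotated GENCODE transcript was used. In *Egr2*, *Atf3* and *Dusp1* the window lay inside the annotated span of the gene, so the DNA before its outermost start was not searched. Searched on both strands, TGACGT, the core of the element bound by CREB and ATF proteins, was in 4 of these 8 windows and in 6.56% of the windows of 27025 genes. The variant TGACATCA, the AP-1 element known from the *Jun* promoter, was in 1 window and in 3.02% of all windows. The 5 windows that hold one of them are shown here because their genes share that core or its AP-1 variant. Capitals mark TGACGT or its reverse complement ACGTCA, TGACATCA in *Jun*, and the CArG box, the serum response factor motif, in *Egr2*. The windows are Fos at chr12:85473640-85473889 on the plus strand, Egr2 at chr10:67537619-67537868 on the plus strand, Dusp1 at chr17:26508473-26508722 on the minus strand, Atf3 at chr1:191183334-191183583 on the minus strand and Jun at chr4:95052223-95052472 on the minus strand, each written 5′ to 3′.
Fos: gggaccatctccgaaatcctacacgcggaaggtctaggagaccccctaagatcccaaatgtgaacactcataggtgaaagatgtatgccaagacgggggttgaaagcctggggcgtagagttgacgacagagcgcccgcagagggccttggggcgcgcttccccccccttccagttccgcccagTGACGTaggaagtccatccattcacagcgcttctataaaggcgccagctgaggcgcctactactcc
Jun: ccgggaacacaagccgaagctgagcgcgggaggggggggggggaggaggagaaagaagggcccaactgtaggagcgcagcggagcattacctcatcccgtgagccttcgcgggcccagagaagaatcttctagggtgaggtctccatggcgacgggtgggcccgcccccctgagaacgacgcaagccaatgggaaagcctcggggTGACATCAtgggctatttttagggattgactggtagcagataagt
Egr2: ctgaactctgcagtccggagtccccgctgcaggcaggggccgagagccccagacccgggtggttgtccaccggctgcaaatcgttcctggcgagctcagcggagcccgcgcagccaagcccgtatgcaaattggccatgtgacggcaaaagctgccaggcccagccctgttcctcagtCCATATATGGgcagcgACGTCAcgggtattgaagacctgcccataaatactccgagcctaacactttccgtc
Atf3: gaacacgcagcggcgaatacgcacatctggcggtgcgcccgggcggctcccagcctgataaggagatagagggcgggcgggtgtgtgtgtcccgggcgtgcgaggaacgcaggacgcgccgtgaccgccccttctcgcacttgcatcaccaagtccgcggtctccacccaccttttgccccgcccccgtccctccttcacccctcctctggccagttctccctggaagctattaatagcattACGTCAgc
Dusp1: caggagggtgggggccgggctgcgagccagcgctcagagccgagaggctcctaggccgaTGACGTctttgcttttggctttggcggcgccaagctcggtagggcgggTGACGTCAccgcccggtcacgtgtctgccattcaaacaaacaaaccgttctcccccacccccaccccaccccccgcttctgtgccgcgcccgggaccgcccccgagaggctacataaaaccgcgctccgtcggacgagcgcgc

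Counted back from the start site, the motif lay at -66 to -61 in *Fos*, at -56 to -51 in *Egr2* and at -8 to -3 in *Atf3*. *Dusp1* held it at -191 to -186 and again at -143, where the palindrome TGACGTCA gives a match on each strand. *Jun* held its variant at -45 to -38. The CArG box was found in *Egr2* alone of the 8, at -72 to -63, and in 1.4% of all windows. TATAAA was in *Fos* alone, at -33 to -28, and in 13% of all windows, and GCGGGGGCG, an Egr motif, was in *Fosb* alone and in 2.56%. The AP-1 consensus TGACTCA was in 0 of the 8 and in 4.43%. These matches describe the letters in the windows and not binding in these cells. DNA farther than 250 bases before the start was not searched, so a gene without a motif here may hold one there.

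The immediate early genes were among the most abundant transcripts of the CD11b+ cells in both genotypes. Together they summed to between 7928.9 and 13474 CPM, which is 0.793% to 1.35% of a normalized library, and a single gene had between 731 and 58386 counts in a library. Levels of different genes were compared per kilobase of their principal GENCODE M21 transcript, over the 12792 tested genes with a length. On this scale *Atf3* ranked 39, *Fos* 43 and *Jun* 44, with medians over the 8 mice of 866, 709 and 692 CPM per kilobase. *Junb* and *Egr1* followed at 463 and 387 CPM per kilobase, then *Dusp1* at 245, *Fosb* at 215, *Jund* at 182 and *Ier2* at 131. *Egr2*, the lowest, had a median of 30.4 CPM per kilobase and ranked 1920. The order was not the same in every mouse. *Atf3* was above *Fos* in 5 of 8 mice and *Fos* above *Jun* in 4 of 8, so these neighbours did not differ beyond their spread, while *Jun* was above *Junb* in 7 of 8 and both *Egr1* above *Dusp1* and *Ier2* above *Egr2* in 8 of 8.

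No immediate early gene was called between the genotypes. A gene was called at a Benjamini-Hochberg adjusted p under 0.05 over all 13407 genes and a fold change under 0.7 or over its reciprocal rounded to 2 decimals, with edgeR's quasi-likelihood test on rounded expected counts. By this rule 0 of 10 immediate early genes were called, where 59 genes or 0.44% of all genes tested were, so a count of 0 is not particular to them. None of the 10 had an unadjusted p under 0.05 with edgeR, where 16.5% of all genes did, and DESeq2 and limma called 0 of them as well. In none of the 10 were the 4 CSF1 OE mice apart from the 4 control mice, where the genotypes did not overlap in 10.3% of all genes. The fitted log2 fold changes, CSF1 OE against control, were above 0 in 4 genes and below 0 in 6, from -0.45 in *Fos* to 0.38 in *Ier2*. Their median was -0.10, beside -0.034 over all genes tested, and it lay above 0 under 5 of the alternatives, including 0.20 where the animal numbers described below entered the fit.

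The intervals leave room for changes of the size the call rule asks for. The 95% interval of the fold change ran past the upper of these limits in 7 of the 10 genes, past the lower in 6, and past both in 3. It held a rise by a factor of 2 in *Ier2* and a fall by a factor of 2 in both *Fos* and *Egr2*. These mice therefore do not show that the levels were alike.

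**Figure D1:**
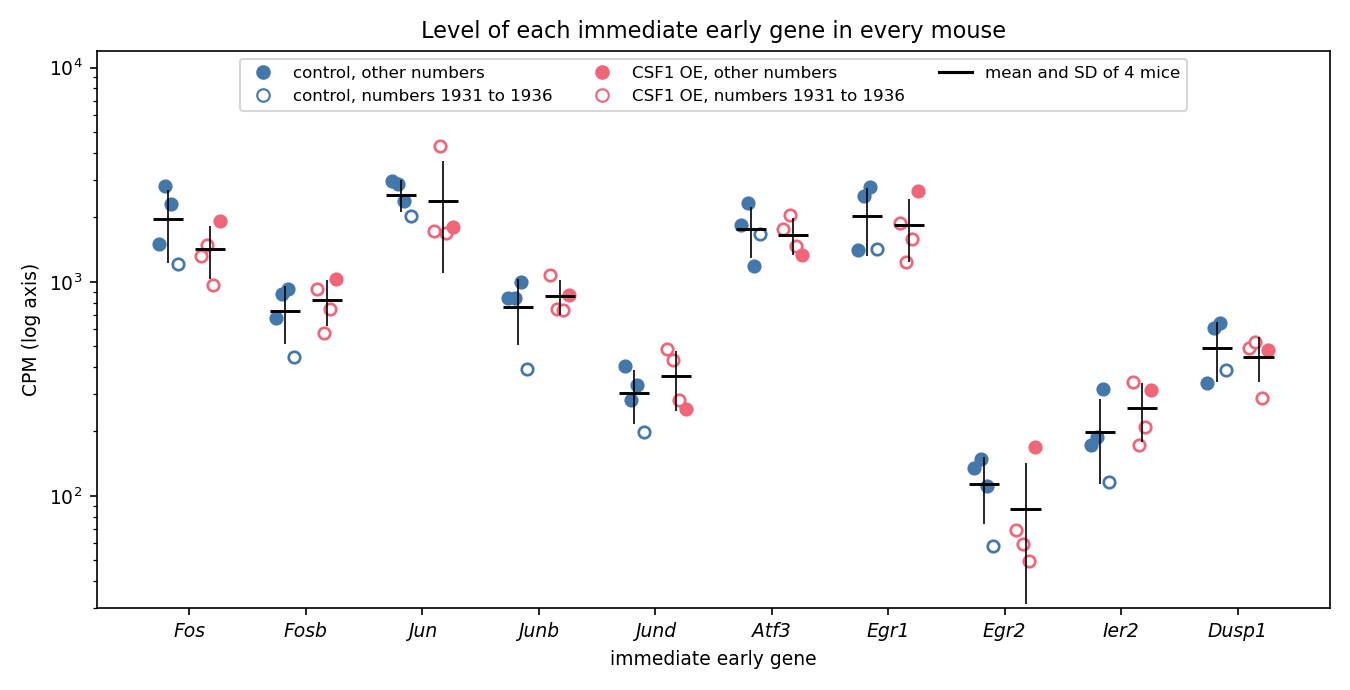
CPM of each immediate early gene in every mouse on a log axis, with control mice in blue and CSF1 OE mice in red, open circles for the animal numbers 1931 to 1936, and black lines for the mean and SD of 4 mice. The genotypes overlap in 10 of 10 genes, and in *Egr2* the open circles, from 49.8 to 69.2 CPM, all lie under the filled ones.

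*Fos*, the founding member of its family and a partner of Jun proteins in AP-1 (chromosome 12, 85473890 to 85477273 on GRCm38), had 1500, 2807, 2309 and 1205 CPM in control mice 1827, 1872, 1874 and 1934. In CSF1 OE mice 1931, 1932, 1936 and 2019 it had 1325, 1488, 965 and 1930 CPM. The highest values belonged to controls 1872 and 1874 and the lowest to CSF1 OE mouse 1936, but control 1934 lay below 3 of the 4 CSF1 OE mice. The means were 1955 ± 735 and 1427 ± 400 CPM (SD, n = 4 each), and the log2 fold change was -0.45 (standard error 0.30, edgeR adjusted p = 0.474).

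*Fosb*, which encodes a second Fos protein (chromosome 7, 19302696 to 19310051), had 681, 881, 922 and 445 CPM in the control mice in the same order and 929, 579, 744 and 1034 CPM in the CSF1 OE mice. Its extremes were control 1934 and CSF1 OE mouse 2019, and the other 6 mice of both genotypes were interleaved. The log2 fold change was 0.17 (standard error 0.25, edgeR adjusted p = 0.766). Without control mouse 1934 it was 0.0022.

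*Jun*, the AP-1 subunit that pairs with Fos and Atf proteins (chromosome 4, 95049034 to 95052222), had 2948, 2865, 2389 and 2026 CPM in control mice and 1730, 4290, 1682 and 1811 CPM in CSF1 OE mice. CSF1 OE mouse 1932 was the highest of all 8, and the other 3 CSF1 OE mice were lower than every control mouse. With all mice the log2 fold change was -0.10 (standard error 0.32, edgeR adjusted p = 0.886). Without CSF1 OE mouse 1932 it was -0.55, with an edgeR adjusted p of 0.174 in a range of 0.174 to 0.996 over the alternatives, so that 1 library decided its size.

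*Junb*, a Jun family member with weaker activity of its own (chromosome 8, 84974484 to 84978718), had 838, 837, 998 and 390 CPM in control mice and 1076, 749, 737 and 871 CPM in CSF1 OE mice. Control 1934 was far below the other 7 mice, which lay between 737 and 1076 CPM. The log2 fold change was 0.17 (edgeR adjusted p = 0.779), and -0.040 without control mouse 1934. *Jund*, the family member with the steadiest expression in many tissues (chromosome 8, 70698949 to 70700616), ranged from 198 to 404 CPM in control and from 254 to 483 CPM in CSF1 OE mice, and its log2 fold change was 0.26 (edgeR adjusted p = 0.657). The libraries were not made to mark strand, and the annotated *Junb* overlaps *Prdx2*, which had a mean of 98.2 CPM, so reads in the overlap could belong to either gene.

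*Atf3*, a stress-induced factor that pairs with Jun proteins (chromosome 1, 191170296 to 191218039), varied least. It ranged from 1185 to 2344 CPM in control and from 1334 to 2056 CPM in CSF1 OE mice, so that all CSF1 OE mice fell within the control range. Its log2 fold change was -0.092, with a 95% interval from -0.59 to 0.40 (edgeR adjusted p = 0.852).

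*Egr1*, an Egr zinc finger factor and a widely used marker of recent stimulation, had 1413, 2517, 2781 and 1424 CPM in control mice and 1884, 1234, 1589 and 2656 CPM in CSF1 OE mice. Each genotype held values near both ends of the range, and the log2 fold change was -0.14 (standard error 0.30, edgeR adjusted p = 0.83). *Egr2*, a related factor with roles in myelinating glia and in lymphoid and myeloid cells (chromosome 10, 67535475 to 67542188), had 135, 148, 111 and 58.4 CPM in control mice and 69.2, 59.4, 49.8 and 170 CPM in CSF1 OE mice. CSF1 OE mouse 2019 was the highest of all and control 1934 was among the lowest, so that in each genotype 1 mouse stood with the other genotype. The log2 fold change of *Egr2* was -0.38 (standard error 0.42, edgeR adjusted p = 0.677). Without CSF1 OE mouse 2019 it was -0.93, with an edgeR adjusted p of 0.179 in a range of 0.179 to 0.867.

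*Ier2*, a small early response gene that encodes a nuclear protein (chromosome 8, 84661331 to 84662852), had 173, 189, 317 and 116 CPM in control mice and 339, 173, 210 and 311 CPM in CSF1 OE mice. It was above the control median in 3 of 4 CSF1 OE mice, and control 1874 was above 3 of them. The log2 fold change was 0.38 with a 95% interval from -0.33 to 1.09 (edgeR adjusted p = 0.575). *Dusp1*, the MAP kinase phosphatase that is itself an early response gene (chromosome 17, 26505590 to 26562128), ranged from 336 to 639 CPM in control and from 287 to 521 CPM in CSF1 OE mice. Its log2 fold change was -0.15 (edgeR adjusted p = 0.794). Its annotated span overlaps *Ergic1*, which had a mean of 73.4 CPM.

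**Figure D2:**
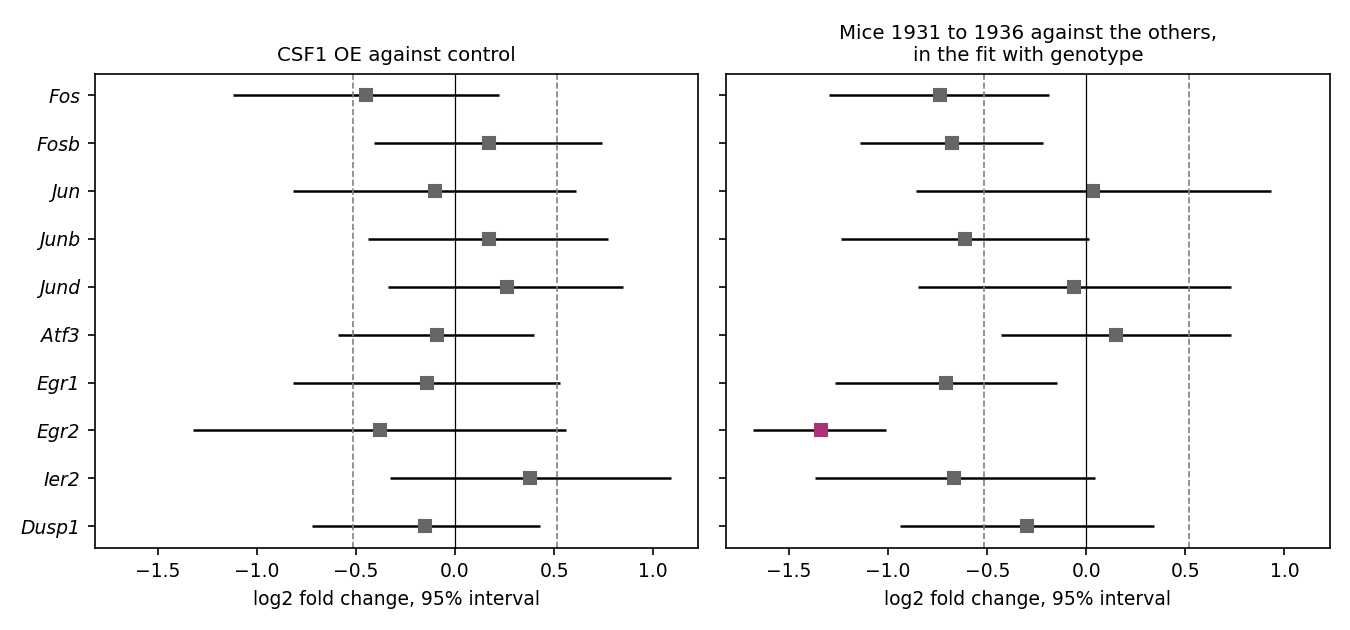
Fitted log2 fold change of each immediate early gene (square) with its 95% interval (line), for CSF1 OE against control on the left and for mice 1931 to 1936 against the other 4 on the right, with dashed lines at the fold limits of the call rule. On the left 10 of 10 intervals hold 0, and on the right *Egr2* at -1.34, in colour, is the gene that was called.

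The immediate early genes varied more between mice of 1 genotype than most genes did. The SD of log2 CPM within a genotype, pooled over the genotypes, ran from 0.35 in *Atf3* to 0.70 in *Egr2* with a median of 0.48. The median of all genes tested was 0.22, and 10 of 10 immediate early genes were above it, at percentiles from 68.7 to 91.6. The 2190 genes with a mean CPM within the range of the 10 had a median SD of 0.17, and 10 of 10 were above that as well. From the lowest to the highest mouse *Atf3* differed by a factor of 1.98 and *Egr2* by a factor of 3.41.

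**Figure D3:**
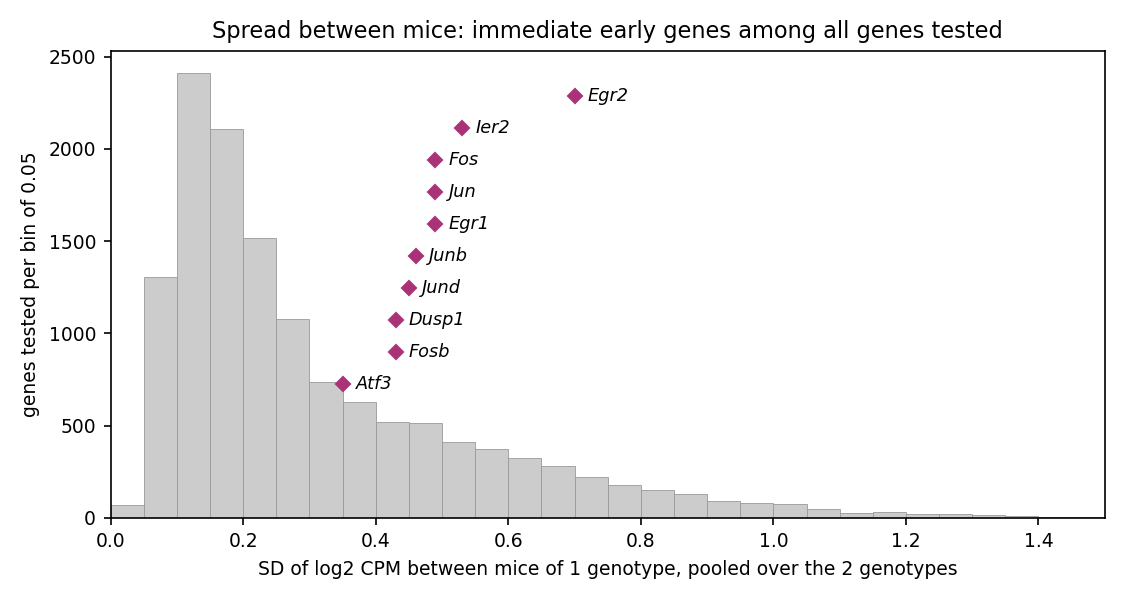
Number of tested genes in each bin of the SD of log2 CPM between mice of 1 genotype (grey bars), with the SD of each immediate early gene on the same horizontal axis (diamonds, whose height has no meaning). The 10 diamonds lie between 0.35 and 0.70, to the right of the median of all genes at 0.22.

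Mice of the same genotype held opposite ends of the range. Control mouse 1934 had the lowest sum, 7928.9 CPM, was lowest of the 8 in *Fosb*, *Junb*, *Jund* and *Ier2*, and was below the mean of the gene in 9 of 10. CSF1 OE mouse 1936, with 8019.6 CPM, was lowest in *Fos*, *Jun*, *Egr2* and *Dusp1* and below the mean in 10 of 10. Control mice 1872 and 1874 had the highest sums, 13474 and 11980 CPM, and were above the mean in 8 and 9 genes. CSF1 OE mouse 1931 was highest in *Junb*, *Jund* and *Ier2* but below the mean in *Fos*, *Jun* and *Egr2*, so the genes did not rise and fall as 1 block. Control mouse 1934 also had the lowest sum of microglia markers, 22200 CPM, and the highest of oligodendrocyte markers, 6160 CPM. The part of these cells in its low values was not tested.

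**Figure D4:**
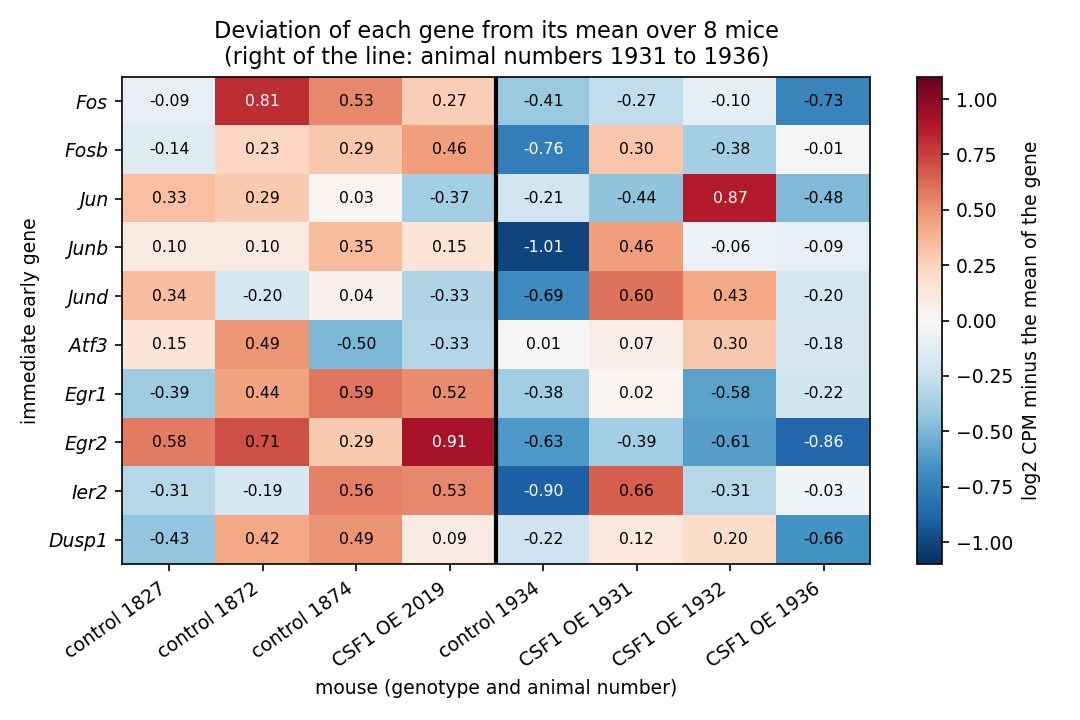
Deviation of log2 CPM from the mean of the gene over 8 mice, in colour and in figures, with 1 row per immediate early gene and 1 column per mouse, and the 4 mice numbered 1931 to 1936 to the right of the line. Control 1934 is below the mean in 9 of 10 genes and CSF1 OE 1936 in 10 of 10, and *Egr2* is below the mean in all 4 mice right of the line.

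Which genes went together across mice was described with Pearson's r over the 8 mice, for the 45 pairs of the 10 genes. It was positive in 34 pairs, with a median of 0.37. *Fosb* and *Ier2* had the highest r, 0.90 (Spearman's rho 0.88, exact permutation p = 0.00164 and 0.00724, adjusted over the 45 pairs 0.0513 and 0.241), and r was 0.80 without the 2 mice farthest from the median of *Fosb*. *Junb* and *Ier2* had an r of 0.86 (rho 0.79, exact permutation p = 0.00228 and 0.0279, adjusted 0.0513 and 0.251), and 0.71 without the 2 mice farthest from the median of *Junb*. No pair passed an adjusted p of 0.05 by either measure. Each of the ranges of animal numbers described next holds 4 mice, too few for a value within it. All points share their library, so depth and cell makeup enter both genes of a pair.

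*Jun* and *Atf3* had the lowest correlation with the mean log2 CPM of the 10 genes, a mean that includes the gene itself. With genotype means removed, this r was 0.232 for *Jun* and 0.02 for *Atf3*. It was 0.462 for *Jund*, the next lowest, and up to 0.908, in *Fos*, for the others. *Jun* and *Atf3* had an r of 0.57 with each other (rho 0.57, exact permutation p = 0.143 and 0.151, adjusted 0.495 and 0.547). Of all other tested genes, those most like the mean of the 10, also with genotype means removed, were *Efcab4a* (r = 0.983), *Fnip2* (0.982), *Arsa* (0.982), *Slc45a4* (0.974) and *Zfp36* (0.973). These r over 8 mice are a description without a test, and they leave out a gene's difference between genotypes. *Efcab4a* had 24.6 to 37.9 CPM in control and 19.0 to 24.8 CPM in CSF1 OE mice (log2 fold change -0.54, edgeR adjusted p = 0.132). *Zfp36*, an early response gene that encodes an RNA-binding protein which destabilises cytokine transcripts, ranged from 1440 CPM in control 1934 to 2662 CPM in control 1872. The other 4 were far less abundant, between 19.0 and 83.3 CPM.

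The animal numbers of the mice fall into 1931 to 1936, with control 1934 and CSF1 OE 1931, 1932 and 1936, and the other 4, with controls 1827, 1872 and 1874 and CSF1 OE 2019. The labels do not say what the numbers stand for, and the range overlaps with genotype, since it holds 1 control and 3 CSF1 OE mice. In an edgeR fit with both terms, *Egr2* was lower in the range by a log2 coefficient of -1.34 (standard error 0.15, 95% interval -1.68 to -1.01, adjusted p = 0.0179). Its 4 mice in the range had 59.2 ± 7.94 CPM and the other 4 had 141 ± 24.7 CPM, and these did not overlap. *Fos* did not overlap either, at 1246 ± 220 against 2137 ± 556 CPM, but was not called (coefficient -0.74, edgeR adjusted p = 0.067). The split was read out gene by gene after the values by mouse had been seen.

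By the same coefficient 8 of the 10 genes were lower in the range, with a median of -0.64 beside -0.013 over all genes tested. *Egr1* was at -0.71 (edgeR adjusted p = 0.08), *Fosb* at -0.68 (0.0518), *Ier2* at -0.67 (0.164) and *Junb* at -0.61 (0.152), while *Jund* at -0.063, *Jun* at 0.035 and *Atf3* at 0.15 were near 0. Over all genes 12% were called for the range, 2.19% lower and 9.82% higher, and the mice in the range were apart from the others in 11.3% of genes, 8.02% lower and the rest higher. Of the 10 immediate early genes 1 was called and 2 were apart, all of them lower in the range, so the shares to set beside them are 2.19% and 8.02%. With 10 genes these counts of 1 and 2 are too small to set the immediate early genes apart from other genes, and the values are given as a description. The microglia markers moved with the range too, with sums of 22200 to 32100 CPM inside and 33600 to 39800 CPM outside it, and oligodendrocyte markers ran from 2900 to 6160 inside and from 1610 to 4540 outside. Their part in the difference was not tested.

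The genotype difference was not steady across the ranges. Only *Fosb*, *Egr1*, *Egr2* and *Ier2* had a difference of the same sign in both, higher in CSF1 OE mice, by 0.73 inside and 0.33 outside for *Fosb*, 0.12 and 0.31 for *Egr1*, 0.014 and 0.38 for *Egr2*, and 1.0 and 0.51 for *Ier2*, as differences of mean log2 CPM. Each of these values rests on 1 mouse of one genotype and has no test. In the fit with the range term the genotype coefficient was 0.54 for *Fosb* (edgeR adjusted p = 0.107) and 0.76 for *Ier2* (0.133). With this term 0 of 10 immediate early genes were called for genotype, where 9.5% of all genes were.

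The other genes of the early response were followed in 7 lists with 104 tested genes, of which edgeR called 0, where 0.44% of all genes were called, and gave 17 an unadjusted p under 0.05, where 16.5% of all genes had one. Over the 104 genes neither count is particular to these lists. The 17 included 5 of the 11 genes listed as ones that microglia can switch on during isolation. From the other lists came 4 of 20 early effectors and feedback genes, 4 of 21 signalling genes and 2 of 15 transcription factors. The rest were 2 of 10 ERK feedback genes, with 0 of the 15 bZIP partner genes and 0 of the 12 heat shock genes. Whether the lists differed in this share was not tested. Of 15 tested early transcription factors beyond the 10, 6 had a log2 fold change above 0 and 9 below. *Maff*, a small Maf protein of the bZIP class, had 36.9 to 52.5 CPM in control and 61.3 to 76.3 CPM in CSF1 OE mice, which did not overlap, as in 10.3% of all genes, and its log2 fold change was 0.64 (standard error 0.14, edgeR adjusted p = 0.0752). *Nr4a3*, an orphan nuclear receptor, was at the other end at -0.63 (edgeR adjusted p = 0.304). Of 20 early effectors and feedback genes 11 were above 0 and 9 below. *Dusp2*, a MAP kinase phosphatase of immune cells, had 36.3 to 69.3 CPM in control and 46.8 to 133 CPM in CSF1 OE mice, and its log2 fold change was 1.11 (edgeR adjusted p = 0.149). *Cyr61*, a secreted matrix protein, had 68.4 to 103 CPM in control and 37.0 to 81.6 CPM in CSF1 OE mice, and its log2 fold change was -0.79 (edgeR adjusted p = 0.179). Endothelial markers, which were at 727 to 1230 CPM in control and 348 to 851 CPM in CSF1 OE mice with 9 of 9 lower, moved the same way, and their part was not tested.

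Among signalling genes and AP-1 partners the log2 fold changes spanned -0.54 to 0.84. Of 15 tested bZIP partner genes 5 were above 0 and 10 below, from *Jdp2*, a Jun dimerization protein, at -0.54 to *Atf5*, an ATF family factor, at 0.30. Of 21 kinases, promoter factors and Egr corepressors 13 were above 0 and 8 below. *Nab2*, the corepressor that binds Egr proteins and is induced by them, had 45.1 to 78.5 CPM in control and 64.4 to 175 CPM in CSF1 OE mice, with its log2 fold change at 0.84 (edgeR adjusted p = 0.207), and *Mkl2*, a coactivator of serum response factor, was at -0.29. Of 10 genes that feed back on ERK 3 were above 0 and 7 below, with *Etv4*, an Ets factor, at 0.98 (edgeR adjusted p = 0.202) and *Spry1*, an inhibitor of receptor tyrosine kinase signalling, at -0.55 (0.255).

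A list of 11 genes that microglia can switch on during isolation held cytokines and the surface genes *Cd14* and *Cd83*. Whether isolation set their levels in these mice was not tested. Their log2 fold changes ran from -0.69 in *Cxcl1*, a chemokine that draws neutrophils, to 1.35 in *Il1a*, an interleukin-1 gene, and 6 of 11 were above 0. With edgeR 5 of the 11 had an unadjusted p under 0.05, where 16.5% of all genes had one. Of these 5, 4 were higher in CSF1 OE mice and 1 was lower. The lowest edgeR adjusted p of the list was 0.0902, so 0 were called. Whether the list as a set differed from other genes was not tested. *Il1a* had 188 to 505 CPM in control and 454 to 1180 CPM in CSF1 OE mice, which overlapped through control 1827 and CSF1 OE 1932 (edgeR adjusted p = 0.108). DESeq2, with its own adjustment over all genes, called *Il1a* (adjusted p = 0.00284), *Maff* (0.00313), *Dusp2* (0.0195) and *Tnf* (0.00157), all higher in CSF1 OE mice, and called 3.14% of all genes. In edgeR and limma none of the 4 was called with all mice and genotype alone. These 4 genes are named as a group because that tool called them, and the median log2 fold change of the 11 listed genes was 0.16.

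Heat shock genes, which also respond to dissociation, divided the mice in a way that overlapped with genotype without matching it. The 12 genes had a median within-genotype SD of 0.93, and 1 was above 0 and 11 below by log2 fold change, from *Hspb1*, a small heat shock protein, at -0.85 (edgeR adjusted p = 0.642) to *Hspe1*, a mitochondrial chaperonin, at 0.17 (0.83). Their summed levels were 17722, 14040, 5433.6 and 14802 CPM in controls 1827, 1872, 1874 and 1934. In CSF1 OE mice 1931, 1932, 1936 and 2019 the sums were 4940.3, 22947, 5470.6 and 6533 CPM. The mice thus fell into 4 at 14040 CPM or more and 4 at 6533 CPM or less, with 3 controls and 1 CSF1 OE mouse among the high ones. *Hspa1a*, the inducible Hsp70, divided the mice in the same way, with 2827, 1933, 155 and 1554 CPM in controls and 33.8, 3610, 207 and 217 CPM in CSF1 OE mice. CSF1 OE mouse 1932 was highest in both the heat shock sum and *Jun*, while control 1874 was low in heat shock genes and had the second highest sum of the immediate early genes. Because the heat shock sums fall into separate clusters, no correlation with them is given.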

How the data were processed

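RNA of CD11b+ cells was sequenced from 4 control and 4 CSF1 OE mice, grouped by the genotype in their labels, with the TruSeq RNA kit v2, which does not mark strand. The authors aligned paired reads with Bowtie 1.0.0 and estimated gene counts with RSEM 1.2.7, with mm10 as the build in the submitters' processing notes. The deposited files hold expected counts per gene, not normalized, and 20.8% to 26.5% of a library's values were not whole. The deposited normalized values, a signal on the count scale, are those counts that the authors divided by 1 size factor per mouse. No pair of the 28 pairs of libraries had equal rounded counts in most genes, with at least 15296 genes unequal.

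Expected counts were rounded and tested in R 4.3.3 with edgeR 4.0.16 (filterByExpr, TMM, glmQLFit, glmQLFTest), as two-sided tests adjusted after Benjamini and Hochberg over 13407 genes. EBSeq, the tool of the study, was not run. log2 CPM used a prior count of 2. A count of 0 allows up to 3 counts, 0.177 to 0.266 CPM, and covers counting error only. Correlations used all pairings of 8 mice. Lengths and positions came from GENCODE M21 (GRCm38, 95.4% of tested genes with a length) and promoter windows from RefSeq. The tests were checked on simulated data. False calls there were above the nominal share with edgeR, DESeq2 and limma, and were most frequent with DESeq2.

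The genes named are the 10 immediate early genes, the extreme gene of each list on either side of 0, every called gene, and the 5 most similar genes; *Tnf* and *Hspa1a* were named after their values were seen. The members and lists were chosen with earlier results of these data known. The alternatives were DESeq2 1.42.0, a robust prior, DESeq2 size factors or upper-quartile factors in edgeR, no filter, a minimum of 10 counts per library, limma 3.58.1 on log2 of the deposited normalized values with a pseudocount of 1 or 10, a term for the animal numbers, no fold threshold, and each mouse left out.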

Additional observations from a re-analysis of the deposited data

Results flagged for a closer look

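In each genotype of 4 mice, a mouse was marked where its gap to the nearest of the others, divided by the whole range, passed Dixon's critical value at the 95% level. Over 24 genes and 48 groups this marked 6. The nominal rate of 1 in 20 groups is for independent groups of normal values. These genes share their libraries, and many were named as the extremes of their lists, so no excess can be read from that rate. *Jun* in CSF1 OE mouse 1932 had 4290 CPM, with the other CSF1 OE mice at 1682 to 1811 CPM. *Egr2* in CSF1 OE mouse 2019 had 170 CPM against 49.8 to 69.2 CPM. *Dusp1* in CSF1 OE mouse 1936 had 287 CPM against 482 to 521 CPM. CSF1 OE mouse 1932 was also high in *Cyr61*, at 81.6 CPM against 37.0 to 41.2 CPM, in *Hspe1*, at 149 CPM against 62.8 to 67.2 CPM, and in *Hspb1*, at 49.3 CPM against 3.7 to 8.72 CPM. All 6 marks fell on CSF1 OE mice, and 4 of the 6 fell on mouse 1932.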

How the results depend on the processing

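The immediate early genes called for genotype were 0 with every other normalization, filter, tool, input and left-out mouse tried and with the term for animal numbers, and 1, *Egr2*, for the coefficient of the animal numbers, which was read out only once the values by mouse were known. The lowest adjusted p of any of the 10 genes for genotype over 17 alternatives was 0.107. All genes called, 59 with edgeR, were 19 with upper-quartile factors, 427 with DESeq2, 104 and 99 with limma at a pseudocount of 1 and 10, 1273 with the term for animal numbers, and 3 to 164 with a mouse left out (3 without control mouse 1872 or 1874, 164 without control mouse 1827). Genes of the related lists called, 0 with edgeR, were 4 with DESeq2, 5 with the term for animal numbers (*Cyr61*, *Dusp2*, *Il1a*, *Maff* and *Tnf*), and 0 to 2 with a mouse left out, the 2 being *Cyr61* and *Tnf* without CSF1 OE mouse 1932. The cause of these shifts was not tested. The median log2 fold change of the 10 genes ran from -0.15 to 0.029 with a mouse left out and was 0.20 with the term for animal numbers.

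With that term the log2 fold change changed sign in *Egr1* (0.19), *Egr2* (0.20), *Dusp1* (0.014) and *Hspe1* (-0.082). With a mouse left out it ran from -0.55 to 0.034 in *Jun*, -0.040 to 0.33 in *Junb*, -0.37 to 0.051 in *Egr1*, -0.24 to 0.077 in *Atf3*, -0.29 to 0.022 in *Dusp1* and -0.24 to 0.31 in *Hspe1*. Within the range it changed sign in *Fos* (0.040), *Jun* (0.20), *Egr1* (0.12), *Egr2* (0.014), *Atf3* (0.057) and *Dusp1* (0.11), and outside it in *Junb* (-0.027), *Jund* (-0.39), *Egr1* (0.31) and *Egr2* (0.38). Of 428 values of single genes under an alternative, 25 changed sign and 395 kept their sign and, where tested, their side of the threshold. The values within and outside the range are among them and have no test. No paired analysis was possible because the labels do not pair control with CSF1 OE mice.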
